A study of Mus musculus with 5 samples.

Results

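Proteins bound for secretion or the cell surface are threaded into the endoplasmic reticulum (ER), folded there by chaperones and disulfide isomerases, and sent back for degradation when folding fails. The genes described here are 35 genes of that pathway, of 29495 genes in the count tables, chosen by gene symbol. They cover lectin chaperones, protein disulfide isomerases, other folding helpers, ER-associated degradation, translocation into the ER, the stress sensors with XBP1, and the CREB3 family of membrane-bound transcription factors. All 35 were found in the 5 libraries, and all 35 passed the filter on low counts that left 15919 genes for testing. Derl3 and Creb3l1 are the weakly expressed members, with 2 to 12 and 7 to 31 counts per library, while the other 33 members had 186 to 13902.

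The RNA came from mouse glioma cells of genotype p53-/-;NF1-/-;tdTomato+/-, taken from a tumor model of mixed background that included CD-1 and C57BL/6. In both groups the cells were grown with olfactory bulb (OB) neurons of C57BL/6 pups and sorted away from them by flow cytometry on their red tdTomato tag. The IGF-1 cultures received 20 ng/mL insulin-like growth factor 1 (IGF-1) overnight (replicates 3, 4 and 5), and the control cultures had the co-culture with no IGF-1 added (replicates 1 and 2). Per the labels' protocols, the neurons of both groups were plated in medium with insulin and serum, so the controls were not free of growth factors. Nothing in the labels says whether the libraries came from separate cultures, tumors or animals, or whether the cells are a single line. The titles of all 5 carry the same code, which the labels do not explain. The p-values therefore cover the differences among these 5 libraries and no more, and those differences may be technical.

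Total counts were 18359421, 19036906 and 20144181 with IGF-1, against 17365697 and 16944315 in the controls. The 6 marker genes of oligodendrocyte progenitors and of gliomas of that lineage summed to 3752 to 4231 CPM with IGF-1, against 3572 and 3696 CPM in the controls, where CPM is the count per 1000000 counts of the library, scaled by TMM factors. The 9 neuronal markers summed to 10.4, 11.2 and 17.2 CPM with IGF-1, against 9.51 and 10.0 CPM in the controls, and the neuronal nuclear gene Rbfox3 had 0 counts in all libraries but control replicate 2, which had 1. Astrocyte markers summed to 177, 200 and 170 CPM with IGF-1, against 196 and 203 CPM in the controls. Mature oligodendrocyte markers summed to 776, 796 and 954 CPM with IGF-1, against 865 and 863 CPM in the controls. Microglial markers summed to under 1 CPM in each library (0.635 to 0.770 with IGF-1, 0.922 and 0.530 in the controls). In bulk RNA of this kind, fewer cells of a type and less RNA per cell cannot be told apart.

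The unfolded protein response raises ER capacity when unfolded proteins build up. Its sensor IRE1, encoded by Ern1, cuts a short intron out of Xbp1 mRNA in the cytoplasm, and the spliced form encodes the active transcription factor. Its sensor ATF6 and the CREB3 proteins are instead carried to the Golgi, where proteases free a DNA-binding fragment. XBP1 and ATF6 act on ER stress response elements (ERSE) in the promoters of chaperone genes. The CREB3 proteins are best known for raising secretory capacity in cells that make much matrix or many secreted proteins.

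The intron that IRE1 removes is shown because it sets a limit on what the Xbp1 counts can say. It was located in the principal mouse transcript (GENCODE M21, chromosome 11) as a stretch between 2 copies of the IRE1 cleavage motif CNGCNGN lying 26 bases apart. Of 2 such pairs in the reading frame, this is the pair whose removal lengthens the frame, to 371 codons without the intron against 267 codons with it. The 26 bases in capitals are the intron.
Xbp1: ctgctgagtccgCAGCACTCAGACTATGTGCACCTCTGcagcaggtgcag

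Promoter sequence is shown for 5 members that carry an ERSE or its variant ERSE-II, the elements through which these genes are known to be switched together. RefSeq promoters (build GRCm38.p6, 250 bases before to 50 after each start) were matched by symbol for 28 of the 35 members. The ERSE, the letters CCAAT and CCACG with 9 open bases between them, was found on either strand in 6 of these 28 genes, Calr, Canx, Creld2, Derl3, Pdia6 and Syvn1 (21.4%), against 0.119% of 32851 mouse promoters. ERSE-II, the letters ATTGG and CCACG with 1 open base between them, was found in 1, Herpud1 (3.57%, against 0.0365% of all promoters). The XBP1-type site TGACGTGG was found in 1, Txndc5 (3.57%, against 0.676%), and the cyclic AMP response element TGACGTCA in 0 of 28 (against 1.79%). Member shares count genes, while the shares beside them count single promoters. The members were chosen as genes of this pathway, so these shares describe them and are not a test. Both ERSE forms end in CCACG, and CCACG on the other strand reads CGTGG, the end of the XBP1-type site, so matches can overlap; a match is a description of the letters and not of binding. The stretches below end at the base before the annotated start, run in the direction of the gene, and carry the ERSE or ERSE-II in capitals. Counts were made on GRCm39, per the submitters' processing notes, and the coordinates here are those of GRCm38.p6. They are chr8:84846932-84847098 on the minus strand for Calr, chr12:17266469-17266588 on the plus strand for Pdia6, chr15:88819515-88819645 on the plus strand for Creld2, chr19:6046456-6046575 on the plus strand for Syvn1 and chr8:94386309-94386428 on the plus strand for Herpud1.
Calr: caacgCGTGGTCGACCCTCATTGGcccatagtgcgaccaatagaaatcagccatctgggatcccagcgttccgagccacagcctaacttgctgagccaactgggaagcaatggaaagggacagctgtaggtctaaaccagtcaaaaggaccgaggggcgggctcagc
Pdia6: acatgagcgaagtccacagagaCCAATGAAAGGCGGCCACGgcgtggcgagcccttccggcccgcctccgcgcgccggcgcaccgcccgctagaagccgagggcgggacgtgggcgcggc
Creld2: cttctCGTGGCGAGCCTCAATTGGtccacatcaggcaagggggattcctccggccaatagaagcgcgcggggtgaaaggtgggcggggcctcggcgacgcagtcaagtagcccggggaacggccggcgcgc
Syvn1: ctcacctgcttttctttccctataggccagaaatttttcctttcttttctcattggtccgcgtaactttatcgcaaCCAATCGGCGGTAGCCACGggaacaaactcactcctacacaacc
Herpud1: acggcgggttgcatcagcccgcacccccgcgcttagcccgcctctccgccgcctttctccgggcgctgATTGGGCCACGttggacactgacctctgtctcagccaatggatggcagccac

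The comparison of IGF-1 with no IGF-1 asks whether the growth factor moved this machinery in glioma cells. With all 5 libraries, 0 of the 35 members were called higher and 0 lower by edgeR's quasi-likelihood test at an adjusted p under 0.05, against 1.02% of all genes tested (109 higher, 0.685%, and 54 lower, 0.339%). Before adjustment, 4 members had p under 0.05 (12.7% of all genes did), with Ern1 and Creb3l2 higher (all genes 7.1%) and Sec61b and Sdf2l1 lower (all genes 5.57%), which is close to the background. DESeq2 likewise called 0 members, against 1.76% of all genes. The median log2 difference, IGF-1 over control, was 0.0097 over the members and -0.0076 over all genes tested, with 18 members above 0 and 17 below. That split was less even without IGF-1 replicate 5, as given below. Groups that did not overlap were found for 11 members, 6 higher and 5 lower, against 33.1% of all genes (16.2% higher and 16.9% lower), a share near the background. The 95% intervals of 30 members lay within 0.5 of 0 on the log2 scale, that is within 1.41-fold, and those of Pdia5, Sdf2l1, Derl3, Sec61b and Creb3l1 reached past it.

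**Figure D1:**
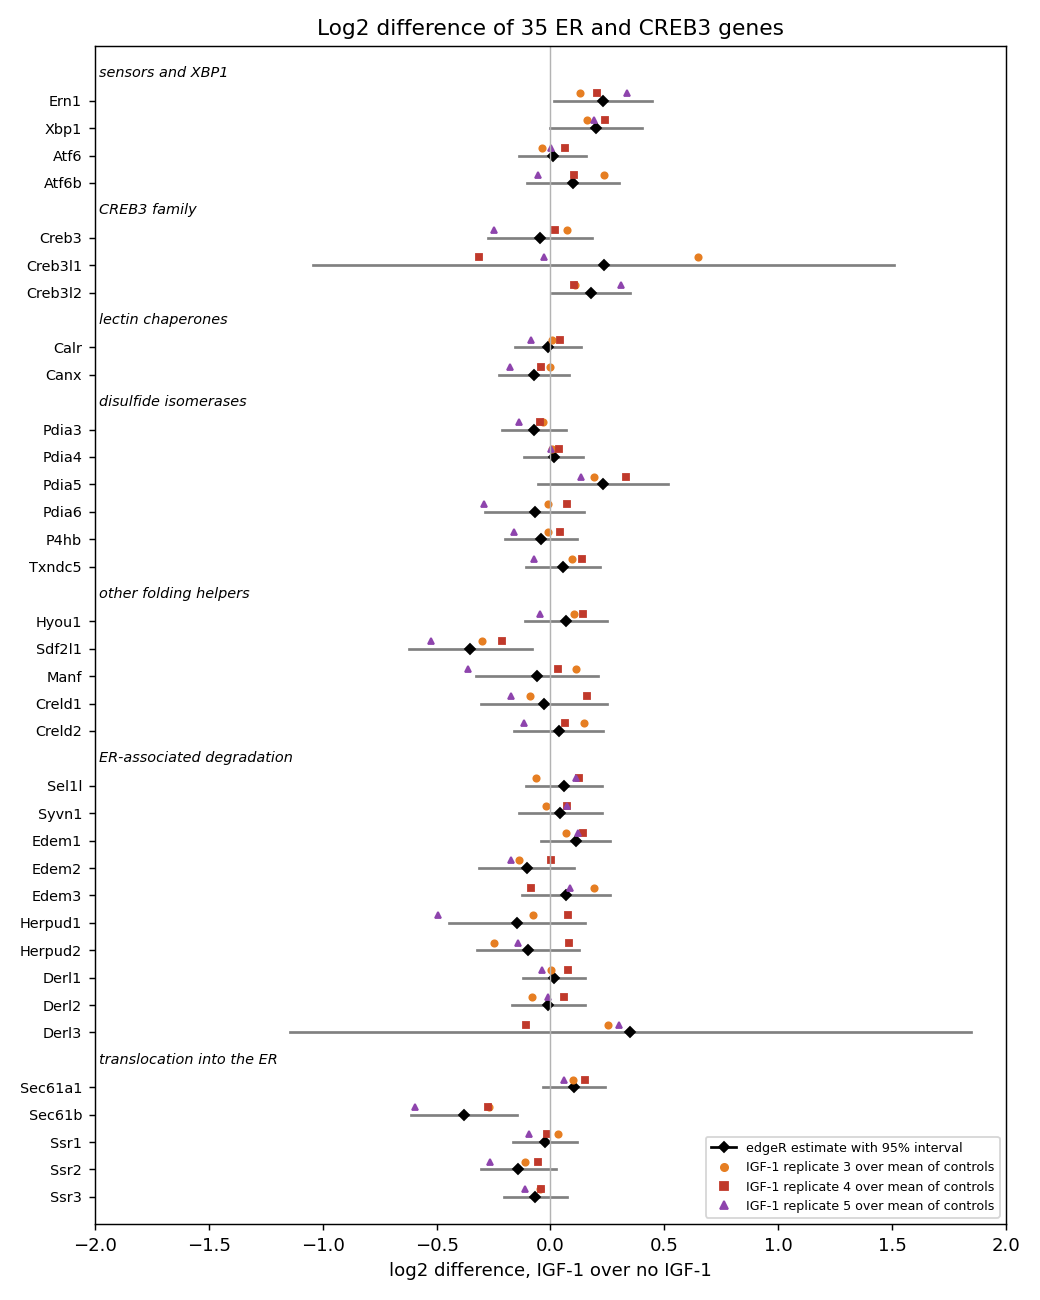
Log2 difference of each member, IGF-1 over no IGF-1 (x axis), by role (y axis). Black diamonds with bars are the edgeR estimate and its 95% interval over 3 IGF-1 and 2 control libraries, and coloured marks are each IGF-1 library against the mean of the controls. The intervals of Sdf2l1, Sec61b, Ern1 and Creb3l2 leave out 0, while those of Derl3 and Creb3l1 are the widest.

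Among the sensors, Ern1 had 29.0, 30.6 and 33.5 CPM in IGF-1 replicates 3, 4 and 5, against 27.4 and 25.5 CPM in control replicates 1 and 2. Every IGF-1 library lay above both controls, but the gap to the nearer control was small beside the spread within the IGF-1 group. The log2 difference was 0.23 (SE 0.10, 95% interval 0.016 to 0.44), and the adjusted p of 0.362 did not pass. Xbp1, the target of the IRE1 nuclease, had 54.2, 57.4 and 55.4 CPM with IGF-1, against 43.9 and 53.2 CPM in the controls. The IGF-1 libraries were close to each other, and the controls differed from each other by more than the IGF-1 group's nearest value did from the higher control. Its log2 difference was 0.20 (SE 0.09, interval -0.0020 to 0.40, adjusted p = 0.398). Counts are per gene, so spliced and unspliced Xbp1 cannot be told apart here.

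Atf6, the ER membrane sensor that yields a transcription factor, had 73.5, 78.8 and 75.7 CPM with IGF-1, against 74.9 and 76.1 CPM in the controls. These ranges overlap, and the log2 difference of 0.0097 had an interval of -0.14 to 0.16 (adjusted p = 0.966). Atf6b, its paralog, had 102, 92.8 and 83.2 CPM with IGF-1, against 90.8 and 81.9 CPM in the controls. Replicates 3 and 4 were above both controls and replicate 5 lay between them. The log2 difference was 0.10 (SE 0.09, adjusted p = 0.689) with all libraries. Without IGF-1 replicate 5 it was 0.17 (SE 0.06), with an adjusted p of 0.0363 by edgeR, which called 9.14% of all genes in that fit, and of 0.241 by DESeq2.

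In the CREB3 family, Creb3 itself, the gene of a factor held at the ER membrane and also called LUMAN, had 41.0, 39.4 and 32.7 CPM with IGF-1, against 39.1 and 38.8 CPM in the controls. Replicates 3 and 4 lay above both controls and replicate 5 below, and the log2 difference was -0.05 (SE 0.10, interval -0.28 to 0.18, adjusted p = 0.879). Annotated exons of Creb3 overlap those of Tln1 by 360 bases and of Gba2 by 133 bases on the other strand, and no source used here says whether counting used strand. Creb3l2, which in mice supports secretion of matrix in cartilage, had 157, 156 and 180 CPM with IGF-1, against 149 and 142 CPM in the controls. All IGF-1 libraries lay above both controls, with replicate 5 the highest, and the log2 difference was 0.18 (SE 0.08, interval 0.0068 to 0.35, adjusted p = 0.377). Creb3l1, known as OASIS and first studied in astrocytes, had 1.71, 0.634 and 0.880 CPM with IGF-1, against 0.403 and 1.41 CPM in the controls. Its values overlap and spread widely within each group, and the interval of its log2 difference ran from -1.04 to 1.51 (adjusted p = 0.895).

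The gene called beside this family was Crebrf, the CREB3 regulatory factor, whose protein binds CREB3 and lowers its activity. It is not among the 35 genes and fell with IGF-1. Crebrf had 26.0, 26.5 and 31.3 CPM with IGF-1, against 69.4 and 71.4 CPM in the controls, with no overlap. The log2 difference was -1.33 (SE 0.09, adjusted p = 4.42e-04). The interval of Creb3 mRNA was -0.28 to 0.18, which does not speak to CREB3 activity, and CREB3 protein was not measured.

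**Figure D2:**
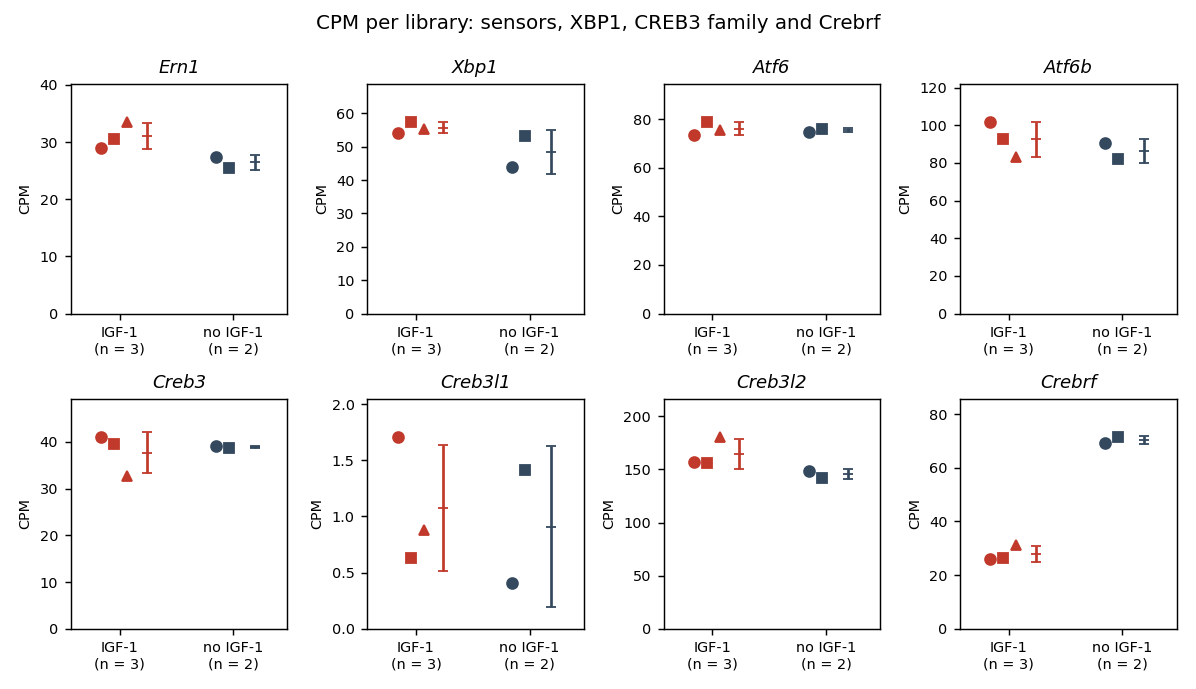
CPM (y axis, from 0) of 7 regulators and of Crebrf in each library, IGF-1 (red) left of no IGF-1 (blue). Circles are replicates 3 and 1, squares replicates 4 and 2 and triangles replicate 5, with mean and SD beside them; Crebrf separates the groups widely, at 26.0 to 31.3 CPM with IGF-1 and 69.4 to 71.4 CPM without.

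The lectin chaperones calreticulin (Calr) and calnexin (Canx), which hold newly made glycoproteins until they fold, had the most CPM of the members. Calr had 705, 721 and 662 CPM with IGF-1, against 718 and 686 CPM in the controls. Canx had 756, 735 and 670 CPM with IGF-1, against 756 and 759 CPM in the controls. Calr values overlap between the groups, and Canx lay below both controls in each IGF-1 library, though barely in replicate 3. The intervals of the log2 differences, -0.16 to 0.13 for Calr and -0.23 to 0.08 for Canx, hold 0 and are narrow (adjusted p = 0.955 and 0.699).

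Of the 6 disulfide isomerase genes, 0 were called, and their log2 differences ran from -0.07 to 0.23. P4hb, the classic isomerase and a subunit of collagen prolyl 4-hydroxylase, had 518, 537 and 467 CPM with IGF-1, against 524 and 521 CPM in the controls. Pdia3, which works with both lectins on glycoproteins, had 495, 491 and 461 CPM with IGF-1, against 504 and 510 CPM in the controls. P4hb overlaps between the groups, while Pdia3 was below both controls in each IGF-1 library, by a log2 difference of -0.07 (SE 0.06, adjusted p = 0.67). Pdia5 is the least abundant of the 6, with 13.3, 14.8 and 12.8 CPM with IGF-1, against 10.7 and 12.5 CPM in the controls. It lay above both controls in each IGF-1 library, at a log2 difference of 0.23 whose interval, -0.06 to 0.52, holds 0 (adjusted p = 0.495). Pdia4, Pdia6 and Txndc5, further isomerases of the same fold, were at 0.015, -0.07 and 0.06.

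Among the other folding helpers, Sdf2l1 had the largest negative difference. This ER-resident partner of DnaJ cochaperones had 15.4, 16.4 and 13.1 CPM with IGF-1, against 19.5 and 18.6 CPM in the controls. The groups do not overlap, and replicate 5 was the lowest library. The log2 difference was -0.35 (SE 0.12, interval -0.62 to -0.08), and with an adjusted p of 0.258 it did not pass, nor without IGF-1 replicate 5 (-0.26, adjusted p = 0.123). Hyou1, the large ER chaperone that recharges BiP, was at 0.07, Manf, a secreted ER stress factor with neurotrophic activity, at -0.06, Creld1, a membrane protein linked to heart septal defects in humans, at -0.03 and its stress-inducible relative Creld2 at 0.04.

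ER-associated degradation gave 0 calls among 10 genes, with a median log2 difference of 0.03. Sel1l and Syvn1, the adaptor and the ubiquitin ligase of the HRD1 complex, were at 0.06 and 0.04, with intervals of -0.11 to 0.23 and -0.14 to 0.22. The EDEM genes, whose proteins mark glycoproteins for disposal by trimming mannose, were at 0.11 (Edem1), -0.10 (Edem2) and 0.07 (Edem3). Edem1 had 69.1, 72.8 and 71.7 CPM with IGF-1, against 68.2 and 63.7 CPM in the controls. Herpud1, a strongly stress-inducible scaffold of the complex, had 77.9, 86.8 and 58.2 CPM with IGF-1, against 80.6 and 83.8 CPM in the controls. The 3 IGF-1 libraries of Herpud1 spread on both sides of the controls, and the log2 difference of -0.15 (SE 0.13, adjusted p = 0.693) went to 0.0034 without replicate 5. Its paralog Herpud2 was at -0.10, and the derlin genes Derl1 and Derl2, which help move substrates out of the ER, were at 0.015 and -0.0088. Derl3 had 0.550, 0.317 and 0.586 CPM with IGF-1, against 0.115 and 0.648 CPM in the controls, values that overlap and leave an interval of -1.14 to 1.84.

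In translocation, 0 of 5 genes were called with all libraries. Sec61b, the small beta subunit of the SEC61 channel, had 39.3, 39.2 and 31.3 CPM with IGF-1, against 47.7 and 47.3 CPM in the controls. The groups are well apart, with the controls nearly equal and replicate 5 the lowest. The log2 difference was -0.38 (SE 0.10, interval -0.61 to -0.15), with an adjusted p of 0.154 over all libraries. Without IGF-1 replicate 5 it was -0.28 (SE 0.07), with an adjusted p of 0.00762 by edgeR and of 0.0824 by DESeq2. Sec61a1, the pore-forming alpha subunit, had 255, 265 and 249 CPM with IGF-1, against 236 and 241 CPM in the controls. All IGF-1 libraries were above both controls, at a log2 difference of 0.10 (SE 0.06, adjusted p = 0.517). Without replicate 5 it was 0.13 (SE 0.04), with an adjusted p of 0.0334 by edgeR and of 0.129 by DESeq2. Of the other channel subunits, which are not among the 35 genes, Sec61g (gamma) was at -0.35 (SE 0.17, adjusted p = 0.443). Each IGF-1 library of Sec61g lay below both controls, though barely in replicate 3 (27.2 CPM, against 27.8 CPM in control replicate 1). Without replicate 5 its log2 difference was -0.16. Sec61a2, a second alpha form, was at -0.06 (adjusted p = 0.797). The TRAP complex genes Ssr1, Ssr2 and Ssr3, whose products sit beside the channel, were at -0.02, -0.14 and -0.07, and Ssr2 was below both controls in each IGF-1 library.

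**Figure D3:**
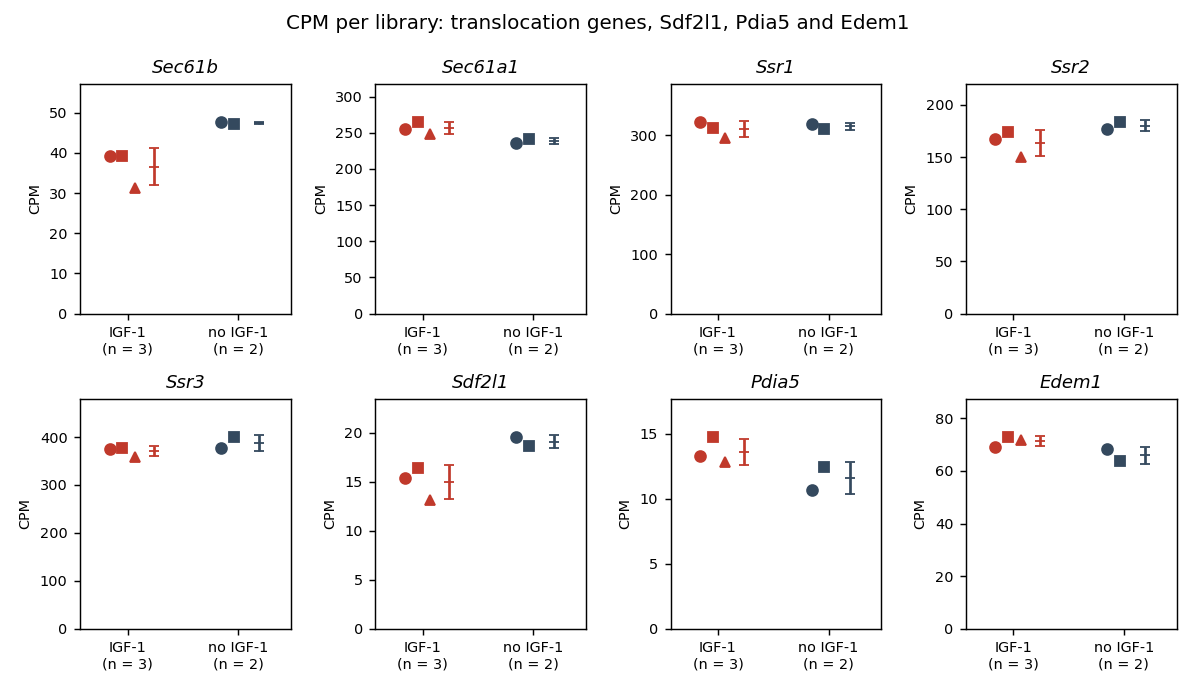
CPM (y axis, from 0) of the 5 translocation genes and of Sdf2l1, Pdia5 and Edem1 in each library, IGF-1 (red) left of no IGF-1 (blue). Circles are replicates 3 and 1, squares replicates 4 and 2 and triangles replicate 5, with mean and SD beside them; Sec61b lies at 31.3 to 39.3 CPM with IGF-1 and 47.3 to 47.7 CPM without, and Sec61a1 at 249 to 265 CPM with IGF-1 and 236 to 241 CPM without.

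Without IGF-1 replicate 5, edgeR called 2 members higher (Sec61a1 and Atf6b) and 1 lower (Sec61b) of 34 tested, against 9.14% of all genes (5.49% higher and 3.65% lower), a share near the background. In that edgeR fit 25 members had a log2 difference above 0 and 9 below, with a median of 0.032. Over all genes 7555 were above 0 and 8018 below, with a median of -0.0057. At an unadjusted p under 0.05 by edgeR, 7 members were higher and 2 lower, against 1808 and 1502 of all 15573 genes. DESeq2 on the same 4 libraries called 0 members, against 3.7% of all genes. Before adjustment, 4 members were higher and 1 lower at p under 0.05 in that DESeq2 fit. Over all 15573 genes it tested, 1052 were higher and 688 lower at that level. That replicate also differed from the others in the level of genes by transcript length. Over the 3883 shortest transcripts (62 to 1660 bases), the median log2 difference from the controls was -0.026 and -0.041 in replicates 3 and 4 and -0.14 in replicate 5. Over the 3879 longest (4327 to 123179 bases) it was 0.0029, 0.0073 and 0.07. Sec61b (564 bases) and Sdf2l1 (1108 bases) are among these shortest, and Ern1 (6946 bases) and Creb3l2 (7082 bases) among the longest. With an offset for this trend, Sec61b was at -0.28 (adjusted p = 0.126), Sdf2l1 at -0.28 (adjusted p = 0.294), Ern1 at 0.19 (adjusted p = 0.377) and Creb3l2 at 0.14 (adjusted p = 0.382).

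Most folding and translocation members were lower in IGF-1 replicate 5 than in the other IGF-1 libraries. All 6 disulfide isomerases, both lectins, all 5 other folding helpers and all 5 translocation genes were lower there than in replicates 3 and 4, as were 3 of 10 degradation genes and 1 of 4 sensor genes and 1 of 3 CREB3 family genes. Over the 35 members this held for 23 (65.7%), against 39.5% of all genes tested. Replicate 5 was the lowest of the 5 libraries for 18 members (51.4%, against 29.4%). The 82 other pathway genes tested had like shares, 65.9% and 52.4%. Of the folding and translocation members, Pdia5 (12.8 CPM) and Sec61a1 (249 CPM) lay above both controls in replicate 5, and Pdia4 and Hyou1 lay between the controls. The members furthest below the control mean in replicate 5 were Sec61b at -0.60, Sdf2l1 at -0.53, Herpud1 at -0.49, Manf at -0.36 and Pdia6 at -0.29. Of the 7 genes with an ERSE or ERSE-II, 5 (Calr, Canx, Creld2, Herpud1 and Pdia6) had their lowest value in replicate 5. Of the members whose promoters held neither element, some, such as P4hb, Pdia3, Sdf2l1 and Sec61b, were also lowest there. Others, such as Pdia4, Pdia5, Edem1 and Xbp1, were not, and a link of these elements to replicate 5 was not tested. Ern1 and Creb3l2 had their highest value there. The progenitor and glioma marker sum (4231 CPM) and the neuronal marker sum (17.2 CPM, of which Syt1 gave 11.3) were also highest in that library. So was the mature oligodendrocyte marker sum (954 CPM), while the astrocyte marker sum (170 CPM) was lowest there. The part of these marker sums in the values of the members was not tested.

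**Figure D4:**
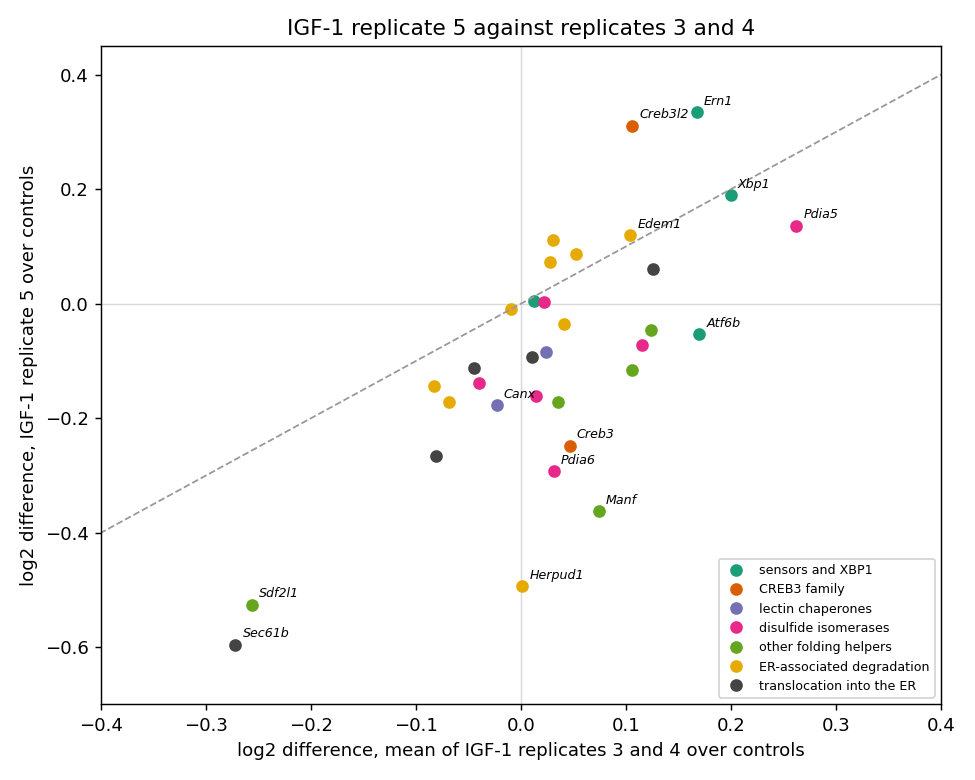
Log2 difference from the mean of the controls in IGF-1 replicate 5 (y axis) against the mean of replicates 3 and 4 (x axis) for 33 members, coloured by role; Derl3 and Creb3l1 are left out for their low counts. Points below the dashed line of equality were lower in replicate 5, as were Herpud1 (-0.49), Manf (-0.36) and Pdia6 (-0.29), while Ern1 (0.33) and Creb3l2 (0.31) lay above it.

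Levels among the members spanned a wide range, compared as CPM per kb of principal transcript. Calr was highest, at 319 CPM per kb with IGF-1, against 321 CPM per kb in the controls. P4hb, Pdia3 and Canx followed at 168 to 177 CPM per kb with IGF-1, against 177 to 183 CPM per kb in the controls. Lectin, isomerase and translocation genes held the first 11 places with IGF-1, and the sensors and the CREB3 family came after them. Atf6b stood at 36.1 CPM per kb with IGF-1, against 33.6 CPM per kb in the controls. Xbp1 stood at 26.2 and Atf6 at 10.5 CPM per kb with IGF-1, against 22.8 and 10.4 CPM per kb in the controls. Ern1 was at 4.47 CPM per kb with IGF-1, against 3.81 in the controls. Creb3l2 and Creb3 had like levels, 23.2 and 20.0 CPM per kb with IGF-1, against 20.5 and 20.7 CPM per kb in the controls, and Creb3l1 was near the floor at 0.412, against 0.349.

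The rest of the pathway gave much the same picture. Of 84 further ER genes, grouped by function, 83 were found and 82 tested, of which 0 were higher and 1, Crebrf, was lower by edgeR and by DESeq2, while 2 higher and 4 lower had p under 0.05 before adjustment, a smaller share than the 12.7% of all genes. Their median log2 difference was 0.0038. Hspa5, the gene of BiP, the main ER chaperone, had 695, 724 and 615 CPM with IGF-1, against 673 and 688 CPM in the controls. Its values overlap, and its log2 difference was -0.0053 (interval -0.18 to 0.16, adjusted p = 0.986). Hsp90b1, the ER form of HSP90, was at -0.13 (adjusted p = 0.531). The ATPase gene Vcp, which extracts substrates from the ER, was at -0.04, the ligase gene Marchf6 at 0.07, and the glycosylation genes Rpn2 and Ganab at 0.011 and 0.02. The proteases that cut ATF6 and CREB3 proteins in the Golgi, Mbtps1 and Mbtps2, were at -0.05 and 0.016. Creb3l4 had a log2 difference of 1.04 (SE 0.45, adjusted p = 0.374) from levels of 1.21 CPM with IGF-1 and 0.581 CPM in the controls.

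Of the 6 genes of the PERK arm, which slows translation and induces ATF4, 0 were called with all libraries. Atf4 had 328, 336 and 243 CPM with IGF-1, against 262 and 274 CPM in the controls. Replicates 3 and 4 lay above both controls and replicate 5 below both. The log2 difference was 0.17 (SE 0.12, adjusted p = 0.592), and 0.31 (adjusted p = 1.78e-09) without replicate 5, when Ppp1r15a, the phosphatase subunit GADD34, was also called by edgeR (0.31, adjusted p = 0.0436). Ddit3, the gene of the stress factor CHOP, was at 0.08 and Eif2ak3, the gene of PERK, at 0.02 (adjusted p = 0.759 and 0.944). Trib3, a pseudokinase gene induced by ATF4, was at -0.16, and Chac1, whose product breaks down glutathione, at -0.14 (adjusted p = 0.814 and 0.853). Both were lowest in replicate 5, at -0.88 and -0.85 against the control mean. Without replicate 5, edgeR called 6 of the 82 further genes higher and 2 lower, against 5.49% and 3.65% of all genes, and DESeq2 called 1 higher (Atf4) and 1 lower (Crebrf). Besides Atf4 and Ppp1r15a the edgeR rises included those of Ero1a, the oxidase that recharges disulfide isomerases (0.19), Uggt1, the folding sensor of the lectin cycle (0.13), and the degradation gene Ube2g2 (0.22). The edgeR falls were those of Crebrf (-1.42) and of Dnajb9, a cochaperone of BiP known as a target of XBP1 (-0.38, adjusted p = 0.0464).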

How the data were processed

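The authors deposited raw counts of reads per gene symbol, 1 table per library with 29495 genes. The submitters' processing notes name featureCounts 2.0.1, STAR 2.7.9a, DESeq2 1.28.1, cutadapt 3.4 and the build GRCm39, with no roles. Annotation, strand setting and handling of multiply mapped reads are not given in the sources used here, and exons of 7 members overlap another counted gene in GENCODE M21. Groups came from the titles. Replicate numbers are not shared between groups and the labels give no batch.

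Genes were filtered with filterByExpr (minimum count 10, minimum total 15), scaled by TMM and tested in R 4.3.3 with the quasi-likelihood F-test of edgeR 4.0.16 (two-sided, Benjamini-Hochberg over all 15919 genes, threshold 0.05). The SE is the size of the log2 change over the square root of F, and 95% intervals use the fit's degrees of freedom. Single-library log2 differences add 0.5 CPM. Alternatives were RLE factors, total counts, no filter, DESeq2 1.42.0, limma 3.58.1 voom with and without sample quality weights, and each library left out. DESeq2 without IGF-1 replicate 5 and an offset for transcript length (97.5% of genes matched) were added after seeing the data, as was the motif search. The procedure was also run on simulated counts. These held no outlying library and no trend with transcript length, so that run does not bear on the features of replicate 5.

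The members and lists were chosen with earlier results of these data known. Every member is given; per-library values are given for regulators, members called in any fit that leaves out 1 library, the 3 largest rises and falls, the 4 most abundant, and, chosen after their values were seen, Edem1. Of the other pathway genes, called ones or the 2 most abundant of a list are named, with Crebrf, Hspa5, Eif2ak3, Atf4 and Ddit3 always. Creb3l4, the proteases, the other channel subunits, Trib3, Chac1 and the genes called without replicate 5 were named after their values were seen; 1 of these is not reported here.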

Additional observations from a re-analysis of the deposited data

How the results depend on the processing

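Of the 35 members, 19 kept their sign under all 13 alternatives run and 16 changed sign under at least 1; the 3 members called under any of them (Sec61b, Sec61a1 and Atf6b) are among the 19. The number of members called higher was 0 under every alternative but one, and 0 to 2 when single libraries were left out, the 2 being without IGF-1 replicate 5 by edgeR and not by DESeq2. The number called lower was 1, Sec61b, with no filter on low counts (adjusted p = 0.00882) and with sample quality weights (adjusted p = 0.0221), and 0 to 1 with single libraries left out. Over the alternatives the adjusted p of Sec61b ran from 0.00762 to 0.842, of Sec61a1 from 0.0334 to 0.949 and of Atf6b from 0.0363 to 0.989.

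Over all genes, 385 were higher and 221 lower with no filter, 191 and 89 with DESeq2, 480 and 331 with sample quality weights, 387 and 189 with DESeq2 without IGF-1 replicate 5, and 92 lower with the length offset. With single libraries left out 0 to 855 were higher and 2 to 569 lower. Of the other pathway genes, 1 was higher with sample quality weights and 1 with DESeq2 without replicate 5, and leaving out single libraries gave 0 to 6 higher and 1 to 2 lower. The cause of these shifts was not tested. A fit with a single control takes its spread from the IGF-1 libraries. No paired analysis was possible because the groups share no replicate number. Counts of Derl3 and Creb3l1 are too low to bound their change.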
